A study of Mus musculus with 4 samples.

Results

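The 10 genes described here encode the main enzymes that methylate lysine 9 of histone H3 (H3K9) and the proteins that read that mark. They were taken from the FPKM table by Ensembl identifier and comprised the methyltransferase genes Suv39h1, Suv39h2, Setdb1, Setdb2, Ehmt1 and Ehmt2, the HP1 genes Cbx1, Cbx3 and Cbx5, and the corepressor gene Trim28, 10 of the 23552 genes listed. FPKM is the number of sequenced fragments per kilobase of a gene's exons, scaled to the depth of the library. RNA-seq was performed on c-Kit+ leukemic cells, a fraction enriched for leukemia stem cells, from the bone marrow of moribund, transplanted C57BL/6 mice with acute myeloid leukemia (AML) driven by the MLL-AF9 fusion. Control cells (replicates 3 and 4) overexpressed eGFP, and SUV-OE cells (replicates 2 and 3) overexpressed Suv39h1, so that all 4 libraries came from transduced MLL-AF9 cells and differed by labelled genotype in the overexpressed gene. The Suv39h1 cDNA was carried by an MSCV-IRES-EGFP vector, and 1 value per gene does not separate vector transcripts from those of the endogenous gene. The labels do not say whether libraries of a group came from separate mice, and p-values therefore measure the spread between these libraries only.

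Suv39h1 and Suv39h2 are paralogs that trimethylate H3K9 at pericentromeric heterochromatin. Setdb1 deposits the same mark, largely at retrotransposons, where it is brought by Trim28, the partner of KRAB zinc finger proteins, and Setdb2 is its less studied relative. Ehmt1 (GLP) and Ehmt2 (G9a) form a heterodimer that makes H3K9 mono- and dimethylation in euchromatin. HP1β (Cbx1), HP1γ (Cbx3) and HP1α (Cbx5) bind methylated H3K9 through a chromodomain, and HP1 in turn binds Suv39h1, which is how the mark can spread along chromatin.

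The bases upstream of the annotated start are shown for Suv39h1, whose vector copy lacks them, and for Suv39h2, its closest paralog. They come from RefSeq windows of 250 bases before a start in GRCm38.p6 (mm10) and read 5′ to 3′ on the minus strand, on which both genes lie. The Suv39h2 window is given without its last bases, which lie in the annotated first exon, and is 205 bases long here. Capitals mark TTGGCGC with G or C as the third and as the fourth base, a form of the E2F motif, and CCAAT, the motif of the factor NF-Y, both searched on both strands.
Suv39h1, chrX:8074761-8075010: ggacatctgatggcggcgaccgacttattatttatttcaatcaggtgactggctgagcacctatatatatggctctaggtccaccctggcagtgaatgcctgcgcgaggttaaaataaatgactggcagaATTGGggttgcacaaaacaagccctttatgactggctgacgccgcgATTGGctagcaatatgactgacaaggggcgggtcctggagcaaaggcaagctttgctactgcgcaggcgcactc
Suv39h2, chr2:3475032-3475236: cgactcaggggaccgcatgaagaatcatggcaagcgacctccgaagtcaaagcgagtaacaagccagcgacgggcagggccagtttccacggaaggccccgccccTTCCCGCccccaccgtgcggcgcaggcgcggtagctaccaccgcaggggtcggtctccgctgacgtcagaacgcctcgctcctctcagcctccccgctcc
The Suv39h1 window held 2 CCAAT motifs, and the Suv39h2 window held 1 E2F motif, 145 bases before the RefSeq start. A second RefSeq start of Suv39h1 had 1 E2F motif 64 bases before it, and the Setdb2 window held 2 CCAAT motifs. RefSeq windows were found for all 10 genes, 14 windows in all because some genes have more than 1 start. Of these 14, 5 held an E2F motif (Suv39h1, Suv39h2, Cbx1, Cbx3 and Trim28) and 4 held CCAAT (Suv39h1, Setdb1, Setdb2 and Cbx5). Over all 32851 windows of the same length, 7.89% held the E2F letters and 33.8% held CCAAT. The 14 windows held 7 to 36 CG pairs each, against a median of 6 over all windows, and every E2F form searched contains CG. Windows of equal CG content were not compared. A match is a run of letters and not a measured binding site.

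The reads on all genes, worked out from the whole-read steps in the FPKM, summed to 20157564 to 23654424 per library. This is a sum over genes and not a measured sequencing depth. The read number by which the FPKM had been divided was lower, 16873770 to 19453057, and with it 3 reads on 1 kb of exons made 0.154 to 0.178 FPKM. The 10 genes held between 145 and 9342 reads in each library, well above that floor. The groups were compared by limma on log2(FPKM + 1) over the 13736 genes that averaged at least 0.5 FPKM, which all 10 genes did, and a gene was called at a Benjamini-Hochberg adjusted p under 0.05 together with a log2 fold change of 1 or more in either direction. Kit, which encodes the antigen on which the cells were enriched, had 20.4 and 19.2 FPKM in the controls against 28.6 and 25.4 in SUV-OE (log2 fold change 0.43, limma adjusted p = 0.160). The summed FPKM of 10 myeloid progenitor markers was 904 and 930 in the controls against 878 and 939 in SUV-OE, and Mpo, Myb and Fcgr3 made up most of it. On the log2 scale 0 were called, 6 were above 0 and 4 below. Among all 13736 tested genes, 1.22% were called, 6458 were above 0 and 7278 below. Both SUV-OE values lay above both control values for 2 of the markers and below them for 3, beside 25.4% and 28.4% of all tested genes. The lowest of these 10, the receptor gene Flt3, had 10.3 and 9.08 FPKM in the controls against 6.196 and 4.18 in SUV-OE (log2 fold change -0.81, limma adjusted p = 0.133).

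Suv39h1 rose about 6-fold in SUV-OE cells, and it was the only one of the 10 genes that was called. Suv39h1 (ENSMUSG00000039231, chromosome X, 8061171 to 8074760 in mm10, minus strand) had 12.4 FPKM in control replicate 3 and 12.4 in control replicate 4, against 75.3 in replicate 2 and 81.2 in replicate 3 of SUV-OE. Each SUV-OE value was far above each control value, and replicates of a group were close to each other. The ratio of group means was 6.31, and the log2 fold change was 2.56 (SE 0.11, 95% interval 2.27 to 2.85, limma adjusted p = 0.00866). Among all tested genes, 0.298% had a larger absolute log2 fold change. The call was lost when any of the 4 libraries was left out, with limma adjusted p from 0.0877 to 0.189 and a log2 fold change between 2.51 and 2.62, and with no filter on low values (limma adjusted p = 0.109). The antisense gene Gm14820 shares 767 exon bases with Suv39h1, 14.6% of the exon bases of Suv39h1, and it held 0 and 6 reads in the controls against 2 and 8 in SUV-OE.

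The size of the Suv39h1 gain depended on the length that the added reads were divided by. The annotated exons of Suv39h1 span 5270 bases, of which 1288 (24.4%) are coding. Over its level in control, Suv39h1 gained 5887 reads in replicate 2 and 6447 in replicate 3 of SUV-OE. Divided by all exon bases, as in the deposited FPKM, these reads amounted to 62.9 and 68.8 FPKM. Divided by the coding bases alone, which the cDNA carried, they amounted to 258 and 282 FPKM, for a Suv39h1 level of 270 and 294 FPKM with the control mean added. The latter calculation was chosen after the data were seen and assumes that every added read came from coding bases, which was not tested.

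Of the 10 genes, 1 was called (10 tested, 1 higher and 0 lower in SUV-OE), beside 1.22% of all tested genes. For Suv39h1 and Setdb1 the SUV-OE pair lay wholly above the control pair, as it did for 25.4% of all tested genes. For Suv39h2, Setdb2, Cbx3 and Cbx5 it lay wholly below, as it did for 28.4% of all tested genes. The groups overlapped for Ehmt1, Ehmt2, Cbx1 and Trim28. The 9 genes other than Suv39h1 had log2 fold changes from -0.35 to 0.14 with a median of -0.11, against a median of -0.02 over all tested genes. Of these 9, 6 had a log2 fold change below 0, a direction shared by 53.0% of all tested genes. The 95% intervals of the 9 genes reached from -0.65 to 0.52, and 8 of them spanned 0. An interval that spans 0 does not show that a gene was equal in both groups.

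**Figure D1:**
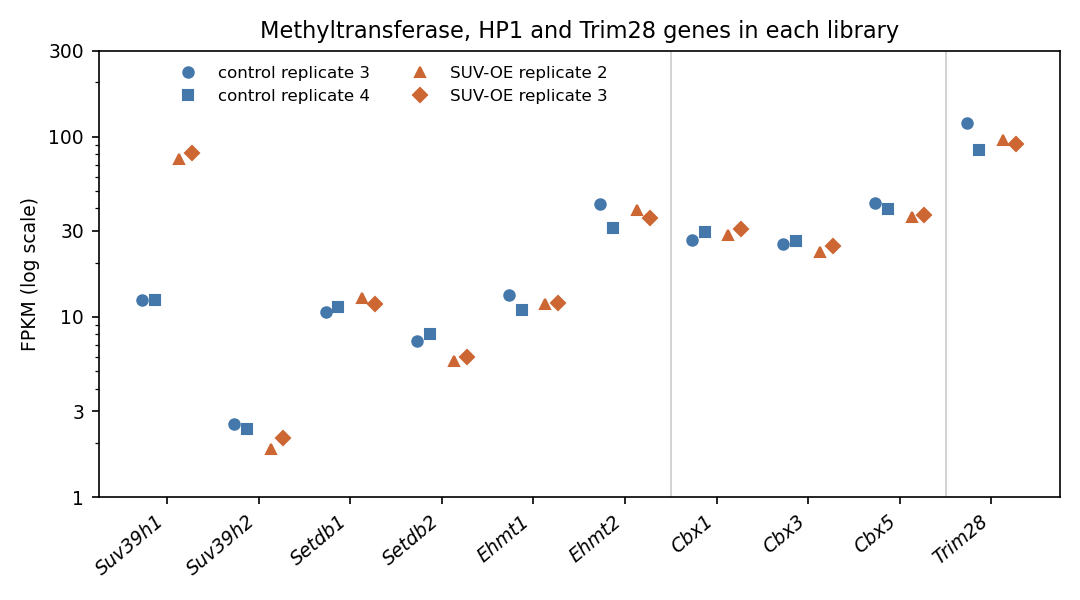
FPKM (log axis) of the 10 genes in each library, with control libraries in blue and SUV-OE libraries in orange, 1 point per library. Suv39h1 lies at 12.4 in both control libraries and at 75.3 and 81.2 in SUV-OE, whereas the points of the other 9 genes lie near each other, from about 2 FPKM for Suv39h2 to 119 for Trim28.

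Suv39h2, the closest paralog of Suv39h1, was the lowest of the 10 genes in every library. Suv39h2 (ENSMUSG00000026646, chromosome 2, 3455815 to 3475031, minus strand) had 2.55 FPKM in control replicate 3 and 2.38 in control replicate 4, against 1.85 in replicate 2 and 2.12 in replicate 3 of SUV-OE. Both SUV-OE values were below both control values, but the counting errors were wide for so few reads. With 219 and 177 reads in the controls against 145 and 166 in SUV-OE, the 95% Poisson interval of control replicate 4 (2.04 to 2.76) overlapped that of SUV-OE replicate 3 (1.81 to 2.46). These intervals cover counting error only. The log2 fold change was -0.22 (SE 0.14, 95% interval -0.58 to 0.14, limma adjusted p = 0.437), and the gene was not called. The ratio of Suv39h1 to Suv39h2 FPKM was 4.85 and 5.22 in the controls against 40.7 and 38.4 in SUV-OE, or 146 and 139 in SUV-OE with the added reads divided by the coding bases. Dclre1c, a DNA repair nuclease gene, shares 357 exon bases with Suv39h2 (8.10% of its exon bases), and its FPKM was 2.50 and 2.40 in the controls against 3.01 and 3.05 in SUV-OE.

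Setdb1 and Setdb2 lay on opposite sides of 0, and neither was called. Setdb1 (ENSMUSG00000015697, chromosome 3, 95323525 to 95357202, minus strand) had 10.6 and 11.4 FPKM in the controls against 12.7 and 11.8 in SUV-OE. The groups did not overlap, but the gap between them was smaller than the difference between replicates. The log2 fold change of Setdb1 was 0.14 (SE 0.11, 95% interval -0.15 to 0.44, limma adjusted p = 0.531). Setdb2 (ENSMUSG00000071350, chromosome 14, 59402009 to 59440884, minus strand) had 7.39 and 8.05 FPKM in the controls against 5.72 and 5.98 in SUV-OE. Here the gap between the groups was larger than the spread within either, and the mean in SUV-OE was 0.757 times that in control. The log2 fold change of Setdb2 was -0.35 (SE 0.12, 95% interval -0.65 to -0.05), which gave a limma p of 0.0316 before adjustment and an adjusted p of 0.20. Among the 9 genes it was the 1 with an unadjusted p under 0.05, a level reached by 20.7% of all tested genes. The ratio of Setdb1 to Setdb2 was 1.43 and 1.41 in the controls against 2.22 and 1.97 in SUV-OE (exact permutation test, two-sided p = 0.333, the smallest that 2 against 2 libraries allow).

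The genes of the heterodimer, Ehmt1 and Ehmt2, overlapped between the groups. Ehmt1 (ENSMUSG00000036893, chromosome 2, 24789928 to 24919614, minus strand) had 13.2 and 10.9 FPKM in the controls against 11.8 and 12.0 in SUV-OE, with a log2 fold change of -0.01 (SE 0.13, 95% interval -0.35 to 0.34, limma adjusted p = 0.979). Ehmt2 (ENSMUSG00000013787, chromosome 17, 34898469 to 34914052, plus strand) had 42.5 and 31.0 FPKM in the controls against 39.4 and 35.3 in SUV-OE, with a log2 fold change of 0.04 (SE 0.18, 95% interval -0.44 to 0.52, limma adjusted p = 0.923). For both genes, the SUV-OE values lay between the control values. Ehmt2 was the most abundant of the methyltransferase transcripts in control, and its ratio to Ehmt1 was 3.22 and 2.85 in the controls against 3.33 and 2.94 in SUV-OE. The direction of Ehmt1 turned to above 0 under quantile normalization (0.03) and median-of-ratios scaling (0.01), both within its interval.

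Summed over the 6 methyltransferase genes, the deposited FPKM was higher in SUV-OE through Suv39h1 alone, the other 5 genes together being no higher. The sum was 88.6 and 76.1 in the controls against 147 and 148 in SUV-OE, that is 82.4 ± 8.82 against 148 ± 1.08 (SD, n = 2 each). Without Suv39h1, the other 5 genes summed to 76.2 and 63.7 in the controls against 71.5 and 67.2 in SUV-OE, and the groups overlapped. Suv39h1 made up 14.0% and 16.3% of the sum of 6 in the controls against 51.3% and 54.7% in SUV-OE. The difference of the mean shares was 37.9 percentage points (exact permutation test, two-sided p = 0.333, the smallest possible with 2 libraries a group), much larger than the spread within either group. With the added reads divided by the coding bases, the share in SUV-OE was 79.1% and 81.4%, and the difference 65.1 points. Among the 4 genes Suv39h1, Suv39h2, Setdb1 and Setdb2 alone, the share of Suv39h1 was 37.6% and 36.3% in the controls against 78.8% and 80.4% in SUV-OE (93.0% and 93.7% over coding bases). The share of Ehmt2 in the sum of 6 was 47.9% and 40.7% in the controls against 26.8% and 23.8% in SUV-OE (11.5% and 9.78% with the added Suv39h1 reads over coding bases). A share in mRNA does not give a share in protein or in enzyme activity, neither of which was measured here.

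**Figure D2:**
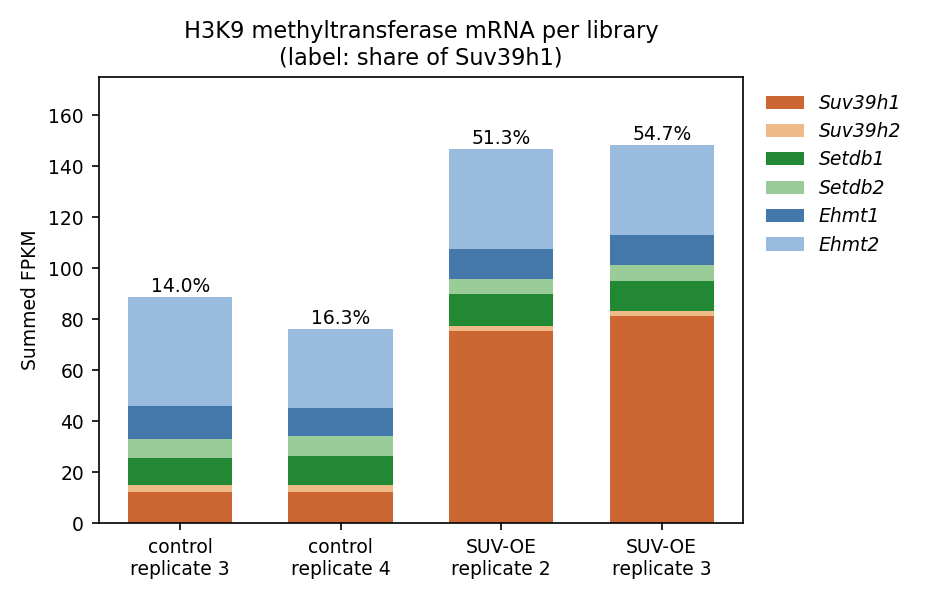
Stacked bars of the FPKM of the 6 methyltransferase genes, 1 bar per library, with the percentage of Suv39h1 above each bar. The orange Suv39h1 segment takes 14.0% and 16.3% of the control bars and 51.3% and 54.7% of the SUV-OE bars, while the segments of the other 5 genes add up to 63.7 to 76.2 FPKM in all 4 libraries.

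The HP1 genes, which encode the readers of the mark, were not called. Cbx1 (ENSMUSG00000018666, chromosome 11, 96789127 to 96808640, plus strand) had 26.7 and 29.5 FPKM in the controls against 28.5 and 30.6 in SUV-OE, with a log2 fold change of 0.07 (SE 0.12, 95% interval -0.24 to 0.38, limma adjusted p = 0.771). Cbx3 (ENSMUSG00000029836, chromosome 6, 51470360 to 51483704, plus strand) had 25.3 and 26.4 FPKM in the controls against 22.9 and 24.9 in SUV-OE, with a log2 fold change of -0.11 (SE 0.11, 95% interval -0.40 to 0.18, limma adjusted p = 0.616). Cbx5 (ENSMUSG00000009575, chromosome 15, 103191544 to 103239816, minus strand) had 42.6 and 39.6 FPKM in the controls against 35.9 and 36.9 in SUV-OE, with a log2 fold change of -0.17 (SE 0.11, 95% interval -0.47 to 0.12, limma adjusted p = 0.451). The groups overlapped for Cbx1, whereas both SUV-OE values lay below both control values for Cbx3 and Cbx5. Cbx3 has 8 named processed pseudogenes in GENCODE, of which 3 are in the table, so that its value is uncertain where reads could be split between copies. The highest of these, Cbx3-ps6, had 4.10 and 3.97 FPKM in the controls against 2.45 and 3.67 in SUV-OE. Under quantile normalization the log2 fold change of Cbx3 was 0.00, just above 0.

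Together the HP1 genes summed to 94.7 and 95.6 FPKM in the controls against 87.3 and 92.4 in SUV-OE, a mean 0.945 times as high in SUV-OE (exact permutation test, two-sided p = 0.333, the smallest possible). Cbx5 made up 45.0% and 41.5% of this sum in the controls against 41.1% and 39.98% in SUV-OE, and Cbx1 made up 28.2% and 30.9% in the controls against 32.6% and 33.1% in SUV-OE. The proportions among the readers differed by a few percentage points between the groups. Their ratio to the overexpressed writer differed much more, with an HP1 sum 7.65 and 7.70 times the Suv39h1 FPKM in control and 1.16 and 1.14 times in SUV-OE. With the added Suv39h1 reads divided by the coding bases, this ratio in SUV-OE was 0.323 and 0.314.

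Trim28 (ENSMUSG00000005566, chromosome 7, 12999114 to 13031035, plus strand) had the highest deposited FPKM of the 10 genes in every library, although Suv39h1 would exceed it in SUV-OE (270 and 294 FPKM) with its added reads divided by the coding bases. It had 119 FPKM in control replicate 3 and 84.9 in control replicate 4, against 95.5 in replicate 2 and 91.1 in replicate 3 of SUV-OE. The SUV-OE values lay between the control values, which differed from each other 1.40-fold. The log2 fold change was -0.11 (SE 0.20, 95% interval -0.62 to 0.41, limma adjusted p = 0.795), the widest interval among the 10 genes, and its direction turned to 0.09 under quantile normalization. Ehmt1, Ehmt2 and Trim28 differed by over 1.2-fold between the control replicates, each with the higher value in control replicate 3, whereas none of the 10 genes did so between the SUV-OE replicates.

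**Figure D3:**
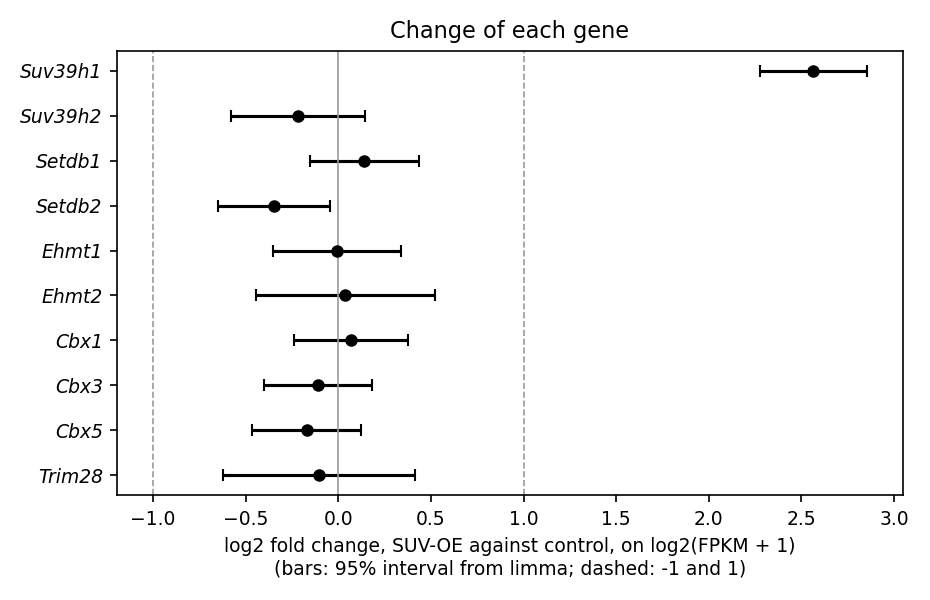
Log2 fold change of each gene, SUV-OE against control, on log2(FPKM + 1), with the 95% interval from limma as a bar. Suv39h1 stands at 2.56, the other 9 points lie between -0.35 and 0.14, and the bar of Setdb2 alone among these 9 does not reach 0.

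By deposited FPKM, which is per exon length, the order of the genes in control was Trim28 first, then Cbx5 and Ehmt2, which overlapped each other, then Cbx1 and Cbx3. Suv39h1, Ehmt1 and Setdb1 followed at 10.6 to 13.2 FPKM, where Ehmt1 overlapped both Suv39h1 and Setdb1. Setdb2 and Suv39h2 came last, without overlap with each other or with the genes above them. In SUV-OE the order was the same but for Suv39h1, which took rank 2 in both libraries in place of ranks 7 and 6, and for changes among genes that overlapped. Cbx5 overlapped Ehmt2 there, and Setdb1 overlapped Ehmt1.

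Over the 4 libraries, no other of the 10 genes had a pattern near that of Suv39h1. Likeness was measured as the Euclidean distance in log2(FPKM + 1) after the control mean of each gene was subtracted, and the nearest of the other 9, Setdb1, was at 3.43. The tested genes nearest to Suv39h1 were Fbp1 at 0.185, Mgam at 0.292, Car2 at 0.342, Tdrd5 at 0.358 and the long noncoding RNA gene Gm30146 at 0.381. Fbp1, which encodes a gluconeogenic phosphatase, had 10.1 and 9.16 FPKM in the controls against 64.7 and 69.4 in SUV-OE. Car2, a carbonic anhydrase gene, had 2.33 and 1.47 FPKM in the controls against 15.9 and 18.4 in SUV-OE. Tdrd5 had 0.0296 and 0.154 FPKM in the controls against 6.74 and 6.27 in SUV-OE, and Gm30146 was listed at 0 and at 0.0980 in the controls against 6.71 and 5.58 in SUV-OE. Both passed the filter through SUV-OE, and their distance to Suv39h1 depended on the pseudocount of 1, since their FPKM ratios between the groups were far larger than that of Suv39h1. These distances are a description over 4 libraries of genes that share the group difference.

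The wider set of genes linked to H3K9 methylation was described by 4 lists, with 37 of their 40 genes tested and 0 called by limma in either direction (1.22% of all tested genes were called). Of the 37, 23 had a log2 fold change above 0 and 14 below, with a median of 0.09. The SUV-OE pair lay wholly above the control pair in 18 (25.4% of all tested genes) and wholly below it in 8 (28.4% of all tested genes). At any fold change, limma-voom on recovered reads gave an adjusted p under 0.05 to 1 of the 37, Atf7ip, beside 6.29% of all genes in that fit, and limma on FPKM to 0.

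Among 12 partners of the methyltransferases, which recruit or stabilize them, 7 were above 0 and 5 below, with a median of 0.15. The highest on log2(FPKM + 1) was Atf7ip, whose protein binds Setdb1 and keeps it nuclear and stable. Atf7ip had 5.90 and 5.13 FPKM in the controls against 10.5 and 9.45 in SUV-OE, with the groups well apart. Its log2 fold change was 0.75 (SE 0.13, 95% interval 0.42 to 1.09, limma adjusted p = 0.0796), and limma-voom gave 0.86 with an adjusted p of 0.0194, short of the fold change threshold. Atf7ip2, on the same list, was at 0.57 by limma but above Atf7ip by limma-voom, at 1.03 (adjusted p = 0.0679). It had 0.762 and 1.05 FPKM in the controls against 1.73 and 1.90 in SUV-OE. The lowest was Hdac1, a histone deacetylase gene, with 71.5 and 69.4 FPKM in the controls against 56.1 and 59.7 in SUV-OE (log2 fold change -0.28, limma adjusted p = 0.275).

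Among 19 genes of proteins that bind HP1 or act beside it, 11 were above 0 and 8 below, with a median of 0.03. Uhrf1, which binds methylated H3K9 and hemimethylated DNA at replication, was the lowest, with 117 and 90.0 FPKM in the controls against 70.4 and 80.5 in SUV-OE (log2 fold change -0.44, SE 0.18, limma adjusted p = 0.263). Senp7, a SUMO protease that acts on HP1, was the highest, with 2.81 and 3.12 FPKM in the controls against 3.97 and 4.15 in SUV-OE (log2 fold change 0.35, SE 0.13, limma adjusted p = 0.221). The groups did not overlap for either gene.

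The 5 chromobox relatives, whose products bind Polycomb rather than H3K9 marks in their best known role, had a median of 0.34, with 4 above 0. Cbx2 was the highest, with 1.82 and 1.18 FPKM in the controls against 3.23 and 2.97 in SUV-OE (log2 fold change 0.72, SE 0.18, limma adjusted p = 0.139). Of 4 PRDM genes, Prdm2, which encodes an H3K9 methyltransferase, was the 1 that passed the filter, with 8.47 and 8.42 FPKM in the controls against 10.7 and 11.04 in SUV-OE (log2 fold change 0.33, SE 0.11, limma adjusted p = 0.191). Mecom, Prdm16 and Prdm8 were under 0.1 FPKM in all 4 libraries.

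**Figure D4:**
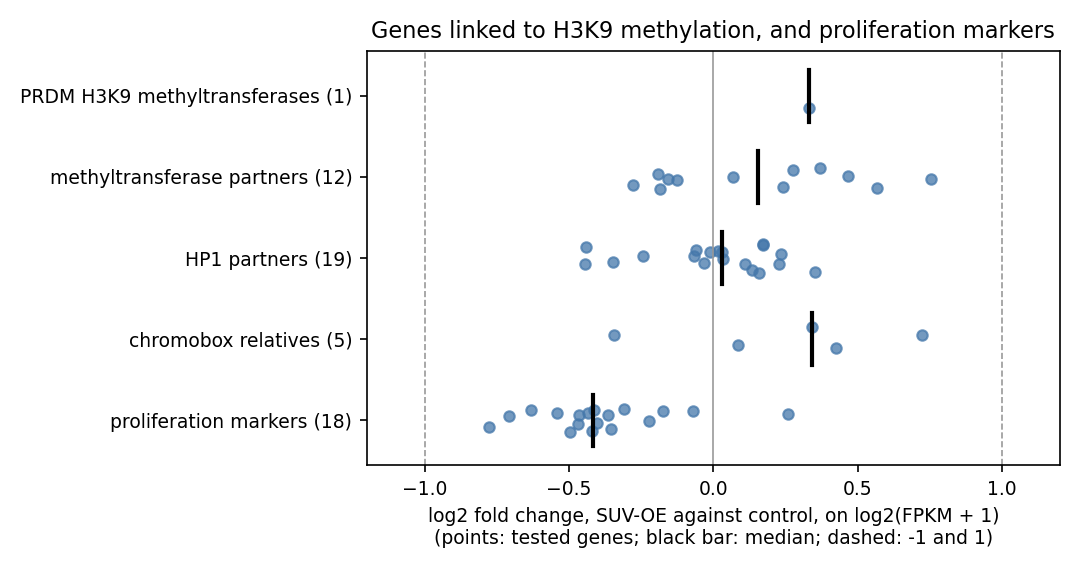
Log2 fold change of each tested gene, 1 point per gene, in the 4 lists linked to H3K9 methylation and in the proliferation markers, with the number tested in parentheses, the median as a black bar and the fold change threshold as dashed lines. No point passes a dashed line, and the medians are 0.33, 0.15, 0.03, 0.34 and -0.42 from top to bottom.

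Other measures also moved with the groups. Of 18 proliferation markers, 0 were called and 17 were below 0, 16 of them with the SUV-OE pair wholly below the control pair, beside 53.0% and 28.4% of all tested genes. Their median log2 fold change was -0.42, and their summed FPKM was 1489 and 1325 in the controls against 997 and 1093 in SUV-OE. The marker above 0 was Mki67, with 38.4 and 43.7 FPKM in the controls against 52.7 and 46.0 in SUV-OE (log2 fold change 0.26, limma adjusted p = 0.364). Among all 13736 tested genes, 1.22% were called, 6458 were above 0 and 25.4% had the SUV-OE pair wholly above the control pair. All 10 mature neutrophil markers were above 0 and 1, Ltf, was called. Their sums were 754 and 2392 in the controls against 6658 and 8106 in SUV-OE. The SUV-OE pair lay wholly above in all 10 of these and in 8 B-lymphoid, 7 macrophage and 5 erythroid markers. It also did so in 1 T and NK marker and 1 stromal and endothelial marker. Of the B-lymphoid markers 8 of 9 tested were above 0 with 0 called (sums of 18.6 and 28.1 against 43.9 and 106, Ms4a1 under 0.1 in every library). Cd79b made up most of the control sums, and without it the sums were 1.25 and 3.04 in the controls against 26.8 and 82.4 in SUV-OE. All 7 tested macrophage markers were above 0 with 0 called (sums of 85.9 and 109 against 145 and 141). All 10 erythroid markers were above 0 with 0 called, but their sums overlapped (15.2 and 141 against 103 and 72.1). The sums of 9 T and NK markers also overlapped, at 74.0 and 114 against 78.1 and 84.4, with Cd3e and Cd8a under 0.1 in every library. Nkg7 made up most of these, and the other 8 summed to 0.985 and 1.72 in the controls against 2.62 and 2.05 in SUV-OE. Of 8 stromal and endothelial markers 2 were tested, and the sums were 26.4 and 32.5 against 81.2 and 71.4. The endothelial and leukocyte adhesion gene Pecam1 was called and made up most of them, with 16.7 and 23.3 FPKM in the controls against 70.3 and 64.1 in SUV-OE, whereas Pdgfrb had 8.56 and 7.78 against 8.44 and 5.57. The part of these differences in the values of the 10 genes was not tested. In bulk RNA, fewer cells of a type and less RNA per cell cannot be told apart.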

How the data were processed

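RNA-seq covered c-Kit+ MLL-AF9 AML cells in 2 control and 2 SUV-OE libraries, all labelled RNA-seq batch 2. The authors made unstranded TruSeq v2 libraries, read paired ends on a HiSeq instrument and placed the reads on mm10 using TopHat2. The submitters' processing notes also name CASAVA 1.8. The authors deposited FPKM as 1 value per gene and library. The paper names Cufflinks for them, but most values were whole reads at an exon length, so the tool behind them is uncertain. The annotation release is not given in the sources used here. The kit does not mark strand, so reads from overlapping antisense genes cannot be told apart.

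The FPKM were tested with limma 3.58.1 in R 4.3.3 on log2(FPKM + 1), a scale that understates the change of low genes, with an intensity trend, group as the only term and Benjamini-Hochberg adjustment over 13736 genes, those averaging 0.5 FPKM or more. The thresholds follow the study. The deposited unit is not counts, so no count model was the main test. Reads were recovered as whole multiples of 1 step per library. At GENCODE M21 exon lengths, 78.5% of genes were whole in all 4 libraries, within 0.01, and other genes were read at another length. Limma-voom ran on genes averaging 10 or more reads, with median-of-ratios size factors. The exact permutation test took all 6 arrangements of the libraries. Fits were tested on simulated data.

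The members and lists were chosen with earlier results of these data known. Genes named were the 10 members, Kit, on each list the highest, the lowest and any called gene, and the 5 genes nearest to Suv39h1. For 1 of the genes that this rule takes, the result is not reported here. Overlapping genes, pseudogenes, Atf7ip2 and single markers were named after their values were seen. Promoter windows came from RefSeq GRCm38.p6. Alternatives were a pseudocount of 0.1, no filter, a mean FPKM minimum of 1, quantile and median-of-ratios scaling, no trend, a robust trend, limma-voom, other thresholds and leaving out each library.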

Additional observations from a re-analysis of the deposited data

How the results depend on the processing

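Suv39h1 was called under 7 of 12 alternatives, with log2 fold changes from 2.51 to 2.69 over all 12. With no filter on low values it was 2.56 (limma adjusted p = 0.109), when 0 of 23552 genes were called by limma and 4177 had an unadjusted p under 0.05. With 1 library left out it was 2.51 to 2.62 (limma adjusted p from 0.0877 to 0.189), when 0 genes were called in each fit and 1146 to 3895 had an unadjusted p under 0.05. These fits have fewer samples and assume that the lone library varies like the other group. The count of the 10 genes called was therefore 0 in these 5 settings and 1 in the others, which include limma-voom (Suv39h1 2.66, adjusted p = 0.000963), an adjusted p under 0.1 and no fold change threshold. Limma-voom without a fold change threshold was added after the data were seen and also gave 1. The number of all genes called was 168, but 0 with no filter and 676 with limma-voom.

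None of the other 9 genes was called under any alternative run. Under quantile normalization the log2 fold change turned to 0.035 for Ehmt1, 0.0034 for Cbx3 and 0.093 for Trim28, and under median-of-ratios scaling to 0.012 for Ehmt1. With 1 library left out it ran from -0.14 to 0.12 for Ehmt1, from -0.18 to 0.26 for Ehmt2 and from -0.34 to 0.13 for Trim28, and, with no change of direction, from 0.09 to 0.19 for Setdb1, from 0.00031 (without control replicate 3) to 0.14 for Cbx1 and from -0.17 to -0.05 for Cbx3. The cause was not tested. The difference in the share of Suv39h1 was 42.6 points among 4 genes in place of 37.9 among 6, 65.1 with the added reads divided by coding bases (chosen after the data were seen), and 36.2 to 39.6 with 1 library left out. The 4 lists had 0 called genes under all 12 alternatives, and the median of the HP1 partners was -0.08 without control replicate 4 and 0.13 without control replicate 3, and that of the chromobox relatives 0.23 without SUV-OE replicate 2. With no filter the median of the PRDM genes was 0.06 over 4 genes, in place of 0.33 for Prdm2 alone. With 2 libraries a group, no exact test could go below p = 0.333, and Suv39h2, at 145 to 219 reads, had the largest counting error. No paired analysis was possible because control and SUV-OE had fewer than 2 replicate numbers in common.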
